A study of Solanum lycopersicum with 6 samples.

Results

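The tomato miRNA families miR1919, miR8033, miR10528 and miR10537, which are of narrow taxonomic range, were examined in small RNA of developing pedicels. They were selected by name alone, as every entry whose name is one of these 4 with or without a locus letter. This gave 7 of the 98 locus names in the series and 70 of its 826 rows, a row being 1 arm of 1 locus in 1 library. The libraries came from distal pedicel segments, bulked, at 10 days after anthesis. There were 3 *hws-1* libraries, from a weak EMS-induced allele of the F-box gene *HAWAIIAN SKIRT* that was found in the cultivar "Micro-Tom" and used as a backcrossed population, and 3 WT libraries of the same cultivar without the allele. Whole segments were used, so that fewer cells of a type and less miRNA per cell cannot be told apart. The study reports that rapid phloem growth begins earlier and is shorter in *hws-1* pedicels, which later have a larger phloem. Growth stage and tissue make-up therefore cannot be told apart from line. The lists hold miRNAs only, which means that neither the *HWS* transcript nor marker transcripts of pedicel tissues could be checked. That the 4 families are restricted to a lineage is their usual description and was not measured here. The RefSeq gene table of the tomato assembly SLM_r2.1 holds 5 genes for 3 of the 4 families, and no gene named for miR8033.

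Plant miRNAs are cut from the stem of a folded precursor as a duplex of a 5p and a 3p arm, one of which usually accumulates as the mature strand while the other, the star strand, is degraded. Families shared across land plants are often encoded by several loci and include the regulators of major developmental transcription factors. Families found in fewer species are often young, weakly expressed and encoded by few loci, and for most of them the targets are less well established. The F-box protein HWS has been linked to the control of miRNA levels, and the libraries were made to compare miRNAs of the mutant and WT. For the families described here no target was measured.

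Levels are given in RPM, reads scaled to 1000000 per library, the unit that the study calls TPM, which counts reads and is not divided by length. From the steps between low values, 1 read was worth between 5.55 and 8.76 RPM in *hws-1* libraries and between 3.19 and 3.88 RPM in WT libraries. All *hws-1* libraries were therefore shallower than all WT libraries, and depth and line cannot be told apart. The share of reads in listed miRNAs was 14.5% to 22.1% in *hws-1* libraries and 13.7% to 17.9% in WT libraries. Which reads enter the scaling is not stated in the sources used here, and these shares and the read values refer to those reads, 114212 to 180179 in *hws-1* libraries and 257797 to 313526 in WT libraries, not to all reads sequenced. Counting intervals below are exact 95% Poisson intervals of the reads and cover counting error only, since reads amplified by PCR are not independent molecules. An arm listed at 0 is taken to allow up to 3 reads, a set limit and not the upper end of such an interval.

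By the sum over its rows, miR1919 was the most abundant of the 4 families, and it was the only one with several loci. The sum takes the rows as additive, which was not tested. Each of the 6 libraries listed 4 loci, miR1919a to miR1919d. Summed over all rows, miR1919 had 1210, 2056 and 1751 RPM in *hws-1* replicates 1, 2 and 3, against 1839, 1632 and 1813 RPM in WT replicates 1, 2 and 3. The highest and the lowest library were both *hws-1*, and the WT libraries lay between them. This placed the family at rank 13 to 15 of the 25 to 27 named families listed in *hws-1* libraries and at rank 11 or 12 of the 27 to 35 listed in WT libraries.

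miR8033, with 1 locus, was lower and equally regular. Its rows summed to 344.1, 346.6 and 267.0 RPM in *hws-1* replicates 1, 2 and 3, against 338.1, 403.4 and 337.6 RPM in WT replicates 1, 2 and 3. The lines overlapped, since *hws-1* replicates 1 and 2 were above WT replicates 1 and 3. The family stood near the end of the order, at rank 20 to 24 in *hws-1* libraries and 22 to 26 in WT libraries. The lowest of the 6 libraries, *hws-1* replicate 3, was also the shallowest.

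**Figure D1:**
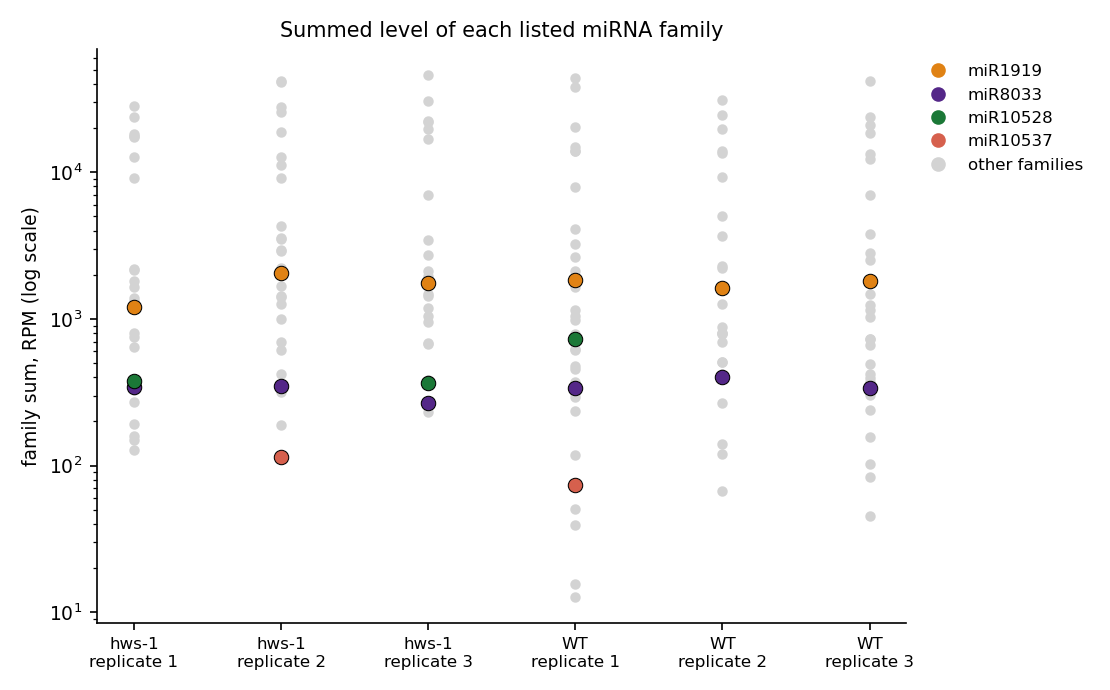
Summed RPM (log axis) of every miRNA family listed in each library, 3 *hws-1* libraries on the left and 3 WT libraries on the right, with the 4 families in colour and the others in grey. miR1919 lies between 1210 and 2056 RPM and miR8033 between 267.0 and 403.4 RPM in all 6 libraries, whereas miR10528 appears in 3 libraries and miR10537 in 2.

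The neighbours of these families in the order of levels were compared within each line, over the families listed in all 3 of its libraries. In *hws-1*, miR1919 (1672 ± 428 RPM, SD, n = 3) stood between miR9470 (1949 ± 289 RPM, SD, n = 3) and miR391 (1376 ± 102 RPM, SD, n = 3), and its libraries overlapped with those of both. In WT, miR1919 (1761 ± 113 RPM, SD, n = 3) stood between miR6027 and miR394. All 3 WT libraries of miR1919 were below the lowest of miR6027 (2134 RPM), while the highest of miR394 (1645 RPM) exceeded the lowest of miR1919 (1632 RPM).

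For miR8033, the family directly above overlapped with it in both lines. It was miR172 in *hws-1* (341.6 ± 34.6 RPM, SD, n = 3, against 319.3 ± 45.2 RPM for miR8033) and miR398 in WT (396.7 ± 25.01 RPM, SD, n = 3, against 359.7 ± 37.9 RPM for miR8033). The family directly below did not overlap in either line. It was miR171 in *hws-1*, with at most 232.9 RPM, and miR477 in WT, with at most 311.0 RPM. These overlaps were partial. *hws-1* replicate 3 was below all *hws-1* values of miR172, a regulator of the phase change, and WT replicates 1 and 3 were below all WT values of miR398, a regulator of copper proteins. In *hws-1*, miR398 was at 2165, 4288 and 1824 RPM in replicates 1, 2 and 3, far above miR8033.

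The other families were listed irregularly. miR10528 was listed in *hws-1* replicates 1 and 3 and in WT replicate 1, that is in both the deepest and the shallowest library of the series. Its 3p arm had 377.4 RPM (68 reads, interval 293.1 to 478.4 RPM) in *hws-1* replicate 1 and 367.7 RPM (42 reads, 265.0 to 497.1 RPM) in *hws-1* replicate 3. In WT replicate 1 it had 727.2 RPM (228 reads, 635.9 to 828.0 RPM). Where it was listed, miR10528 was therefore above miR8033 in the same library, and the intervals of the 2 *hws-1* libraries overlapped with each other but not with that of the WT library. With 1 WT library, this difference has no replicate check.

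In *hws-1* replicate 2 and WT replicates 2 and 3, miR10528 was not listed, which gives no value and is not a level of 0. Loci of lower level were listed in these libraries. In *hws-1* replicate 2, 22 of the 66 loci had a mature arm below the lowest listed miR10528 value of 367.7 RPM. In WT replicates 2 and 3, 29 of 68 and 34 of 73 loci did.

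miR10537, the rarest of the 4, was listed in *hws-1* replicate 2, with 114.5 RPM on its 3p arm (18 reads, interval 67.8 to 180.9 RPM), and in WT replicate 1, with 60.6 RPM (19 reads, 36.5 to 94.6 RPM). The intervals overlapped, and there was 1 library of each line, so that no difference between lines can be read from them. It was the lowest of the 27 families of *hws-1* replicate 2 and stood at rank 31 of 35 in WT replicate 1. Among the libraries without it, *hws-1* replicate 3 listed no locus with a mature arm below 60.6 RPM, *hws-1* replicate 1 listed 6, and WT replicates 2 and 3 listed 8 and 15. miR10528 and miR10537 were listed together in WT replicate 1 only, which held the most families, 35.

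Irregular listing was not particular to these names. Of the 14 families of narrower range, a list that contains all 4, 8 were listed in all 6 libraries and 6 were not, as against 13 and 6 of the 19 conserved families. The number of loci was constant over the 6 libraries for miR1919, with 4, and for miR8033, with 1. It was constant for 14 of the 21 families listed in all 6 libraries, 7 of the 8 narrower and 7 of the 13 conserved ones.

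Places in the lists recurred between libraries. Loci miR1919a, miR1919b and miR1919c directly followed each other after miR166g in 6 of 6 libraries, and miR1919d stood further on, after miR396d in 5 of 6. RefSeq holds MIR1919c, MIR1919b and MIR1919a as consecutive miRNA genes on chromosome 8 of SLM_r2.1. The letters of the lists need not be those of RefSeq, and a RefSeq gene for the listed miR1919d was not identified here. In both libraries that list it, miR10537 stood between miR9470 and miR168a, and MIR10537 lies between MIR9470 and MIR168a on chromosome 8 in RefSeq. miR10528 preceded miR393 in the 3 libraries that list it, whereas RefSeq places MIR10528 on chromosome 5 between MIR7981a and MIR172d, neither of which stood beside it in the lists. miR8033 stood between miR164a and a miR408 locus in 6 of 6 libraries.

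**Figure D2:**
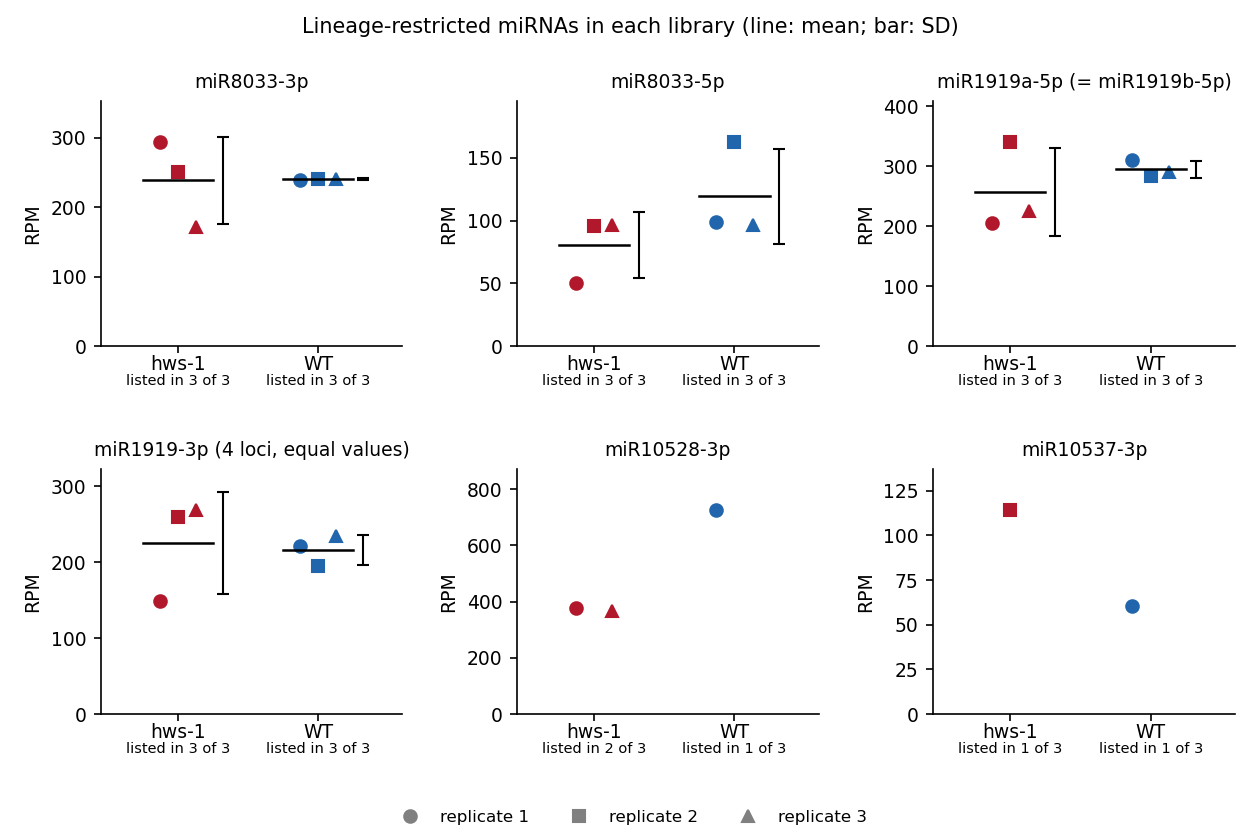
RPM of the main arms in each library, *hws-1* left and WT right in each panel, with 1 symbol per replicate number and, where all 3 libraries list the arm, the mean (line) and SD (bar). The *hws-1* points of miR8033-3p and miR1919 spread more widely than the WT points. For miR8033-5p the lines touch at 96.3 and 96.5 RPM, and miR10528-3p and miR10537-3p are listed in 3 and 2 libraries.

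The arms of miR1919 differed between its loci. miR1919a-5p and miR1919b-5p held the same value in every library, at 205.0, 341.1 and 226.2 RPM in *hws-1* replicates 1, 2 and 3, against 311.2, 283.2 and 290.1 RPM in WT replicates 1, 2 and 3. miR1919d-5p was close to them, at 207.8, 337.9 and 221.8 RPM in *hws-1*, against 327.2, 287.0 and 293.7 RPM in WT. In contrast, miR1919c-5p was listed at 0 in 3 of 3 *hws-1* libraries, and at 6.38, 0 and 3.57 RPM in WT replicates 1, 2 and 3, which are 2, 0 and 1 reads. The 5p values of the family thus stood at 3 of the 4 loci, apart from the few reads of miR1919c-5p. Whether these 3 rows divide the same reads was not tested, so the locus of origin cannot be told.

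On the 3p arm, all 4 loci held the same value in each of the 6 libraries. It was 148.2, 258.9 and 269.2 RPM in *hws-1* replicates 1, 2 and 3, against 220.7, 194.7 and 233.8 RPM in WT replicates 1, 2 and 3. Per locus these values are 26.7 to 69.2 reads, and none of the 6 is a whole number. Whether the 4 equal rows divide the same reads was not tested, and their values are given below as 1 measurement, although each row entered the fit across all rows. Of the 10 families with at least 2 loci in every library, 2 had an arm with equal values at all loci in all 6 libraries, miR1919 and miR162, which targets the miRNA-processing enzyme DCL1.

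The 5p rows of miR1919d and miR1919a differed by few reads. The row of miR1919d exceeded that of miR1919a by 0.5 reads in *hws-1* replicate 1 and was below it by 0.5 reads (differences of -0.5) in *hws-1* replicates 2 and 3, against 5, 1 and 1 reads above in WT replicates 1, 2 and 3. This contrast was chosen after its values were seen and is given without a test.

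Over all loci together, miR1919 gave nearly equal amounts from its arms. This takes the rows as additive, and whether rows of equal values divide the same reads was not tested. Summed over loci, the 5p arm made up 51.0%, 49.6% and 38.5% of the family in *hws-1* replicates 1, 2 and 3, against 52.0%, 52.3% and 48.4% in WT replicates 1, 2 and 3. Locus by locus, the 5p arm of miR1919a, miR1919b and miR1919d was above the 3p arm in 5 libraries and below it in *hws-1* replicate 3. In that library these 3 loci are listed with the 3p arm as mature, and in the other 5 with the 5p arm. In every one of the 35 listings of a locus of the 4 families, the mature arm was at least as high as the star, as in 386 of the 413 listings of all loci. At each locus of the 4 families, the word "mature" thus named the arm of higher value and changed where that order changed. It did not follow the family sum. The summed 5p share was 49.6% in *hws-1* replicate 2 and 48.4% in WT replicate 3. Both libraries list the 5p arm of miR1919a, miR1919b and miR1919d as mature. Of the 44 locus names present in all 6 libraries, the mature arm differed between libraries for 6, which are miR1919a, miR1919b, miR1919d, miR396a, miR396d and miRN1.

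The 3p arm dominated in the other families. miR8033-3p was the mature arm in 6 of 6 libraries, and the 5p arm took 14.5%, 27.5% and 36.1% of the family in *hws-1* replicates 1, 2 and 3, against 29.2%, 40.4% and 28.6% in WT replicates 1, 2 and 3. The lines overlapped. The ratio of 5p to 3p of miR8033 was 0.371 ± 0.197 (SD, n = 3) in *hws-1* and 0.497 ± 0.156 (SD, n = 3) in WT, and its log2 differed by -0.53 (two-sided exact permutation test, p = 0.40). For miR1919 the ratio was 0.884 ± 0.226 (SD, n = 3) in *hws-1* and 1.04 ± 0.0875 (SD, n = 3) in WT, a log2 difference of -0.26 (two-sided exact permutation test, p = 0.40). An exact permutation test of 3 against 3 libraries cannot give p below 0.10. Both differences moved with single libraries. For miR8033 the log2 difference was -0.06 without *hws-1* replicate 1, -0.29 without WT replicate 2 and -0.91 without *hws-1* replicate 3. For miR1919 it was -0.03 without *hws-1* replicate 3 and -0.40 without *hws-1* replicate 1. Between libraries of the same replicate number, the ratio was lower in *hws-1* in 3 of 3 pairs for miR1919 (exact permutation of signs, two-sided, p = 0.25, which 3 pairs cannot go below) and in 2 of 3 pairs for miR8033 (p = 0.50, same exact test). This pairing was added after the values were seen.

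**Figure D3:**
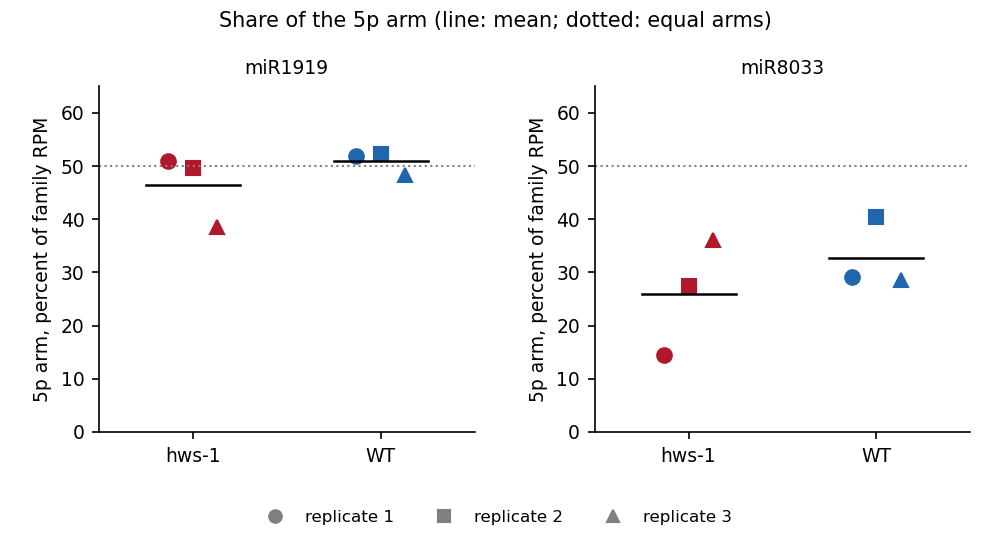
Share of the 5p arm in the summed RPM of miR1919 (left panel) and miR8033 (right panel) in each library, *hws-1* left and WT right, with 1 symbol per replicate number, the mean of each line and equal arms as a dotted line. miR1919 lies between 48.4% and 52.3% in all libraries but *hws-1* replicate 3 (38.5%), and miR8033 lies between 14.5% and 40.4%.

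The star strands of the irregular families had few reads. miR10528-5p had 2 reads (6.38 RPM, interval 0.773 to 23.0 RPM) in WT replicate 1 beside 228 reads of the 3p arm, or 0.870% of the family. It was listed at 0 in *hws-1* replicates 1 and 3, which allows up to 16.7 and 26.3 RPM there, more than the WT value. miR10537-5p was listed at 0 in *hws-1* replicate 2, which allows up to 19.1 RPM. In WT replicate 1 it had 4 reads (12.8 RPM, interval 3.48 to 32.7 RPM) beside 19 reads of the 3p arm, or 17.4% of the family. The limits of 16.7 to 26.3 RPM in *hws-1* likewise exceed both WT values of miR1919c-5p. For none of these star strands was a difference between the lines detectable at this depth.

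The evidence word of the lists followed the star strand. Loci of the 4 families were listed as Known 28 times, each time with a star strand above 0, and as Probable 7 times, each time with a star strand at 0. Over all loci listed with either word, the star strand was at 0 in 1 of 312 Known and in 79 of 91 Probable listings. miR10528 and miR10537 were Known in WT replicate 1 and Probable in each *hws-1* library that lists them. miR1919c was Known in WT replicates 1 and 3 and Probable in the other 4 libraries, a change that rested on 2 reads and 1 read.

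The lines were compared for miR1919 and miR8033, which are listed in all 6 libraries, by limma on log2(RPM + 1), where a log2 fold change is *hws-1* over WT and understates changes of low rows. Neither family passed the test. With rows joined by their full designation, 4 of 58 rows, or 6.9% (3.45% higher and 3.45% lower in *hws-1*), had an adjusted p under 0.05 in limma, and 0 of the 2 rows of miR8033 did, also at an unadjusted p under 0.05. No row of miR1919 could enter this comparison, because the mature arm or the evidence word of each locus differs between libraries. With rows joined by name and arm only, 3 of 86 rows, or 3.49% (1.16% higher and 2.33% lower in *hws-1*), passed, and 0 of the 10 rows of miR1919 and miR8033 did, of which 1, miR1919c-5p, had an unadjusted limma p under 0.05. The median log2 fold change was -0.14 over these 10 rows and 0.05 over all 86. With rows of equal values counted once, it was -0.25 over the 6 distinct rows of these families, -0.23 without miR1919c-5p, whose fitted value rests on at most 2 reads, and 0.03 over all 76 distinct rows. As a block, the replicate number raised the number of rows passed in limma to 8 of 58 and to 10 of 86. Of the rows of these families, it added miR1919c-5p (adjusted p = 0.015 against 0.22 without the block, limma, and 0.0067 to 0.73 over all alternatives), whose values are at most 2 reads and lie under the limit of 3 reads in both lines. The lowest of these came without WT replicate 2, the WT library at 0.

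miR8033-3p had the same mean in both lines within error, at 294.2, 251.2 and 170.7 RPM in *hws-1* replicates 1, 2 and 3, against 239.2, 240.5 and 241.2 RPM in WT replicates 1, 2 and 3. The *hws-1* libraries lay on both sides of WT. In *hws-1* replicates 2 and 3 and WT replicate 3 the values come to 39.5, 19.5 and 67.5 reads. These are not whole numbers, although 1 locus is listed, and the reason was not tested. The log2 fold change was -0.05 (standard error 0.34, 95% confidence interval -0.79 to 0.70, adjusted p = 0.98 from limma). The interval does not leave out a change of 1.5-fold in either direction. The WT libraries agreed to within an SD of 0.991 RPM, while the counting interval of 1 of them, replicate 1 with 75 reads, was 188.2 to 299.9 RPM, so this SD is smaller than counting error allows for and says little about precision. Without *hws-1* replicate 3, the log2 fold change was 0.18 (adjusted p = 0.68 from limma).

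miR8033-5p, the star strand, had 49.95, 95.4 and 96.3 RPM in *hws-1* replicates 1, 2 and 3, against 98.9, 162.9 and 96.5 RPM in WT replicates 1, 2 and 3. All *hws-1* libraries were below all WT libraries, but by 0.153 RPM between the highest *hws-1* and the lowest WT library, far less than the 3.57 RPM or 8.76 RPM that 1 read is worth in them. A gap of this kind, with *hws-1* lower, was seen in 4 of the 58 rows, or 6.9%, and by name and arm in 4.65% of rows, or 19.8% in either direction. The values are 9, 15 and 11 reads in *hws-1*, against 31, 42 and 27 reads in WT. The counting interval of *hws-1* replicate 3 (48.1 to 172.3 RPM) includes all 3 WT values, that of replicate 2 (53.4 to 157.3 RPM) all but the highest, and that of replicate 1 (22.8 to 94.8 RPM) none. The log2 fold change was -0.58 (standard error 0.39, 95% confidence interval -1.42 to 0.26, adjusted p = 0.55 from limma; exact permutation test, two-sided, p = 0.10, which is the smallest possible). It was -0.27 without *hws-1* replicate 1 and -0.34 without WT replicate 2, the lowest and the highest library.

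miR1919 rows, joined by name and arm, overlapped between the lines on every arm. The 5p rows of miR1919a and miR1919b averaged 257.4 ± 73.2 RPM (SD, n = 3) in *hws-1* and 294.8 ± 14.6 RPM (SD, n = 3) in WT. Their log2 fold change was -0.23 (standard error 0.30, 95% confidence interval -0.94 to 0.48, adjusted p = 0.91 from limma), and it was -0.08 without *hws-1* replicate 1 and -0.45 without *hws-1* replicate 2. For miR1919d-5p it was -0.27 (95% confidence interval -0.98 to 0.44, adjusted p = 0.84 from limma). The 3p rows, equal at all loci, averaged 225.4 ± 67.1 RPM (SD, n = 3) in *hws-1* and 216.4 ± 19.9 RPM (SD, n = 3) in WT, a log2 fold change of 0.01 (95% confidence interval -0.76 to 0.79, adjusted p = 0.996 from limma). The direction of the 3p rows turned with 5 of the 14 alternatives, and none of these values passed the test.

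**Figure D4:**
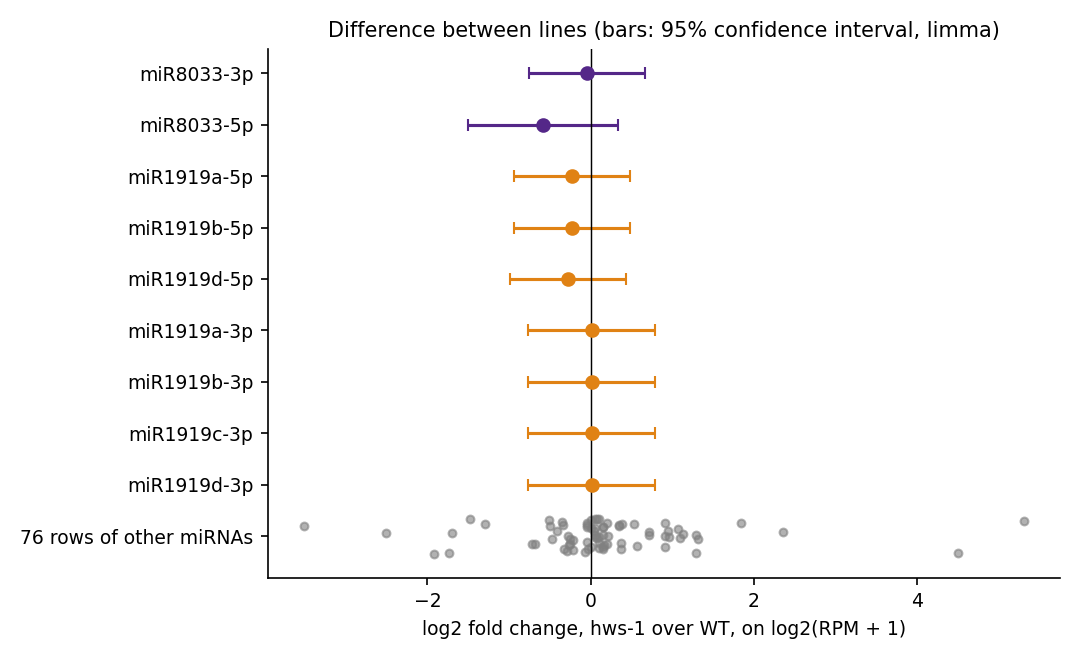
Log2 fold change of *hws-1* over WT on log2(RPM + 1), with 95% confidence intervals from limma, for 9 rows of miR8033 and miR1919 joined by name and arm (miR1919c-5p, at 0 in *hws-1*, is left out), above the values of 76 rows of other miRNAs in grey. All 9 intervals include 0, and the lowest of the 9 values is that of miR8033-5p at -0.58. The interval of the row left out does not include 0 (log2 fold change -1.69, 95% confidence interval -3.37 to -0.02, adjusted p = 0.22 from limma). That row rests on at most 2 reads per library.

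Sums over all rows of a family do not depend on letters, arms or evidence words. For miR1919 the log2 fold change of the sum was -0.11 (95% confidence interval -0.76 to 0.55, adjusted p = 0.78 from limma over 21 families; two-sided exact permutation test, p = 0.80). For miR8033 it was -0.18 (95% confidence interval -0.83 to 0.48, adjusted p = 0.73 from limma; two-sided exact permutation test, p = 0.60). In this fit 3 of the 21 families, or 14.3%, passed, all higher in *hws-1*, and 0 of these 2 did in limma, also at an unadjusted p under 0.05. The sums of both families overlapped between the lines, and 1 family of the 21, or 4.76%, was lower in *hws-1* with no overlap. The fit gave all families the same standard error, 0.33, so a family's own spread has no weight in its p-value. Without *hws-1* replicate 1, the log2 fold change of miR1919 was 0.11 (adjusted p = 0.61 from limma).

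As a share of all listed miRNAs, miR1919 was lower in *hws-1* in each library. It took 0.837%, 0.930% and 0.927% of the listed RPM in *hws-1* replicates 1, 2 and 3, against 1.03%, 1.19% and 1.14% in WT replicates 1, 2 and 3 (exact permutation test, two-sided, p = 0.10, which is the smallest possible). A gap in this direction was found for 5 of the 21 families, or 23.8%, and in either direction for 42.9%. Scaling to the same sum of listed rows shifts all families, with a median log2 fold change of -0.01 in place of 0.20. On this scale the log2 fold change of miR1919 was -0.32 (adjusted p = 0.20 from limma), and the distance from the median family stayed as it was without the scaling. The share of miR8033 overlapped between the lines, at 0.238%, 0.157% and 0.141% in *hws-1*, against 0.189%, 0.294% and 0.212% in WT (two-sided exact permutation test, p = 0.30).

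Other rows of families of narrower range showed as few calls. Of 20 such rows from 6 other families, joined by name and arm, 0 passed in limma, with 3 at an unadjusted p under 0.05 and a median log2 fold change of 0.00. Of 54 rows of conserved families, 1 passed as higher and 2 as lower in *hws-1*. Some names of conserved families stand for different loci in different libraries, because letters follow the order of each list.

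Over the 6 libraries, miR1919d-5p varied most like miR482d-3p, of the family that targets NLR immune receptor genes (Pearson r = 0.99 on log2(RPM + 1) over 6 libraries), followed by miR9470-3p (r = 0.87), and the same 2 rows were closest to miR1919a-5p (r = 0.99 and 0.84). The letter of miR482d need not mark the same locus in every library. The 3p rows of miR1919 varied most like miR396b-3p, of the growth-regulating-factor family (r = 0.96), and miR166d-5p (r = 0.94). miR8033-5p varied most like miR162a-5p (r = 0.84) and miR9471b-5p (r = 0.83), and miR8033-3p had no close match, with miR6026-5p (r = 0.45) and miR166i-5p (r = 0.42) as the nearest. For miR1919c-5p, at 0 in 4 libraries, the nearest were miR9470-3p (r = 0.78) and miR319a-3p (r = 0.77). These are the highest values over 85 rows each, with 1 row per family, and describe 6 points that share library depth and line. Between the arms, r was -0.40 for miR8033 and 0.52 for miR1919a over the 6 libraries. These 2 values were not tested and show no direction reliably.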

How the data were processed

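Values deposited by the authors are RPM per miRNA arm, made per library by sRNAminer (One Step pipeline, default settings). The headers name trimming, removal of rRNA and organelle reads, and bowtie. The version and the genome build are not given in the sources used here. The value of 1 read is the largest step of which at least 30% of a library's values are whole multiples (relative tolerance 1e-06; 32.3% to 38.0% were whole), so no count model was fitted. The planned join by full designation was kept, and miR1919 was tested with rows joined by name and arm, or summed. limma 3.58.1 (R 4.3.3) was fitted on log2(RPM + 1) to all rows present in 6 libraries with a value above 0, with Benjamini-Hochberg adjustment at 0.05. Single values had exact permutation tests (scipy 1.17.1). The study calls the samples biological replicates. Tables and plots used Python 3.11.15, pandas 2.3.3, numpy 2.4.6 and matplotlib 3.10.9.

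The fit was tested on simulated data. Deviations from the line means correlated weakly between samples of the same replicate number, as labelled (0.16, 0.22 and 0.23). For different numbers the correlations were between -0.33 and 0.14, and the contrast was not tested. A fit with the replicate number as a block was an alternative. The others were pseudocounts of 0.1 and 10, absent rows set to 0, a mean of at least 10 RPM, equal sums, median centring, an intensity trend and the omission of each library. All rows of the 4 families are named, with the 2 rows of other families most like each by Pearson correlation, 1 per family, and the families next in level. Members and lists were chosen with earlier results of these data known.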

Additional observations from a re-analysis of the deposited data

How the results depend on the processing

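Alternatives were followed for 7 log2 fold changes of miR8033 and miR1919 rows and family sums, without miR1919c-5p. None of the 7 passed the limma test under any of its 12 to 15 alternatives, 96 values in all. The lowest adjusted p was 0.082 (miR8033-5p with median centring, range 0.082 to 0.98). In limma, miR1919c-5p, of at most 2 reads, passed with the replicate block (adjusted p = 0.015) and without WT replicate 2 (adjusted p = 0.0067). The depth limits all values: 1 read is worth up to 8.76 RPM. The cause of the changes below was not tested. The sign of the 3p rows of miR1919 turned to -0.20 with equal sums and -0.49 with median centring, and leaving out each library gave -0.14 to 0.29. Both scalings shift all rows, the median of the 86 going to -0.18 and -0.45. The same omissions gave -0.21 to 0.18 for miR8033-3p and -0.27 to 0.11 for the sum of miR1919, where 1 library each, *hws-1* replicate 3 and *hws-1* replicate 1, turned the sign. Other values kept their sign: over their alternatives, with median centring as the lowest, miR1919a-5p and miR1919b-5p gave -0.73 to -0.08, miR1919d-5p -0.77 to -0.14 and the sum of miR8033 -0.45 to -0.05. The replicate block changed no call of these families but that of miR1919c-5p. The number of rows passed was 4 by full designation, and 8 with a pseudocount of 10, with a mean of at least 10 RPM and with the replicate block, and 3 to 8 with a library left out (8 without *hws-1* replicate 1). By name and arm it was 3, and 9 with absent rows set to 0, 6 with an intensity trend, 10 with a pseudocount of 10, 10 with the replicate block, and 2 to 8 with a library left out (8 without *hws-1* replicate 1 and 5 without *hws-1* replicate 2). Of the families, 3 passed, 1 with equal sums, 1 with median centring, and 1 to 3 with a library left out (1 without *hws-1* replicate 2).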
